A study of Mus musculus with 4 samples.

Results

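The levels of 5 genes were described by cell type and library in cells of popliteal lymphatic vessels (PLVs) and the neighbouring superficial saphenous vein (SSV) of mice. The genes were the chemokines *Ccl19*, *Cxcl13* and *Ccl11*, the chemokine receptor *Ccr7*, and *Tnfsf13b*, which encodes the B cell survival factor BAFF. They were picked by symbol, as 5 of the 30406 genes listed for all 4 libraries, to ask whether the stroma of TNF-Tg vessels carries traits of lymphoid stroma and which leukocytes hold the receptor. The study that made the data had already reported *Ccl19* as raised in the cells it named smooth muscle of TNF-Tg mice. In short, *Ccl19* was the only gene of the set at least 2-fold higher in TNF-Tg than in WT stroma, with 1 library each. The replicate tdT libraries were themselves 6.42-fold and 6.60-fold apart in the 2 stromal classes. Of these libraries, tdT1 also differed from the others in nozzle, sequencer and software version. The gap to WT narrowed when the libraries were merged without integration. *Cxcl13* was held by stroma in every library and by M2-macrophage-like cells in all but tdT1, where these cells had only 3 UMIs (counted molecules). Summed over a class, *Cxcl13* was no higher in TNF-Tg than in WT. *Ccr7* was held by a few mature dendritic cell-like cells, T cells and B cells.

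The data were 4 libraries of single-cell RNA sequencing (10x), each from the vessels of 3 pooled mice on a C57BL/6J background. The tdT1 and tdT2 libraries held tdTomato-positive cells of *Cspg4*-Cre;Ai9-tdTomato mice of both sexes older than 8 months, in which the promoter of *Cspg4*, a gene of mural and other mesenchymal cells, drives the Cre that switches on the reporter. The WT library came from male wild-type mice of 9 months, and the TNF-Tg library from male mice of 9 months that carry a human TNF transgene and develop arthritis. WT and TNF-Tg cells carried no reporter and were sorted as live cells of high forward and side scatter, the tdT1 cells passed a smaller sorter nozzle than the others, and every library was made on its own day. WT and TNF-Tg were 1 library each, so that no test between them was possible, and the transgene and the run cannot be told apart. Intervals given in square brackets are 95% intervals of counting error only (exact Poisson for levels, Clopper-Pearson for shares, exact conditional binomial for ratios). The libraries held 454 to 5488 cells and 2357031 to 68773605 unique molecular identifiers (UMIs), 11 of the 10837 barcodes occurred in more than 1 library, and WT and TNF-Tg shared 2. A level is given as CPM, the UMIs of a gene per 1000000 UMIs of all cells of that class in that library, and where 4 levels follow each other they stand in the order tdT1, tdT2, WT and TNF-Tg.

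CCL19 and CCL21 are ligands of CCR7 and guide T cells and mature dendritic cells through lymphatic vessels and into the T cell zones of lymph nodes, where fibroblastic reticular cells make them. CXCL13 draws B cells through its receptor CXCR5 and is made by follicular stroma, and in some tissues by macrophages. CCL11, or eotaxin, draws eosinophils through CCR3, and BAFF keeps B cells alive through its receptor encoded by *Tnfrsf13c*. Signals through the lymphotoxin beta and TNF receptors are known inducers of several of these genes in lymphoid stroma.

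In GRCm38, *Ccl19* lies on the minus strand at chr4:42754525-42756577 and *Cxcl13* on the plus strand at chr5:95956951-95961068. *Tnfsf13b* lies at chr8:10006467-10039072 and *Ccl11* at chr11:82057823-82062955, both on the plus strand, and *Ccr7* at chr11:99144196-99155077 on the minus strand. The RefSeq promoter table (GRCm38.p6, 250 bases before each gene start) held windows for 3 of the 5 genes. The stretches below show letters before the starts of the 2 chemokine genes of lymphoid stroma, and no link between these letters and the levels was tested. In the stretch before the RefSeq start of *Ccl19* the capitals mark a core of the interferon-stimulated response element (GAAA, any 2 bases, GAAA), and in the window before *Cxcl13* they mark a TATA box core (TATAAA). Both are printed 5′ to 3′ on the strand of the gene.
Ccl19, chr4:42756554-42756583, minus strand: ttttgggacaGAAAGTGAAAgctcaaggca
Cxcl13, chr5:95956689-95956938, plus strand: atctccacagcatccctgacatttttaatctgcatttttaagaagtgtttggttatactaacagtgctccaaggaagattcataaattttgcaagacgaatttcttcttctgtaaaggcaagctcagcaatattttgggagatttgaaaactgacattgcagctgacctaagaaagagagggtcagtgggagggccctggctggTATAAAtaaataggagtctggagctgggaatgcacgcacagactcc

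Of the 3 motifs searched on both strands, the *Ccl19* core begins 208 bases before the RefSeq gene start, which lies inside the longer gene interval given above, so that the core falls within that interval, and the same core was found in a window of *Tnfsf13b*. It occurred in 2.98% of 32851 promoter windows. The TATA box core of *Cxcl13* begins 46 bases before the start and occurred in 12.4% of the windows. The consensus for kappa B sites matched none of the members' windows and 7.25% of all windows. A match is a description of letters only, and the absence of a match says nothing about a factor.

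The cells were clustered without 52 gene entries: the members, their receptors and partners, the lymphoid stroma list and the lymphotoxin and TNF receptor axis. The lists of mature dendritic cell, naive T cell and B cell genes were not left out. Clusters were named from fixed marker lists. Of the genes that define muscle, the contractile ones were near 0 in the 2 stromal classes. The clusters that carried the study's marker lists of LMCs (lymphatic muscle) and VSMCs (vascular smooth muscle) had *Acta2*, the actin of smooth muscle, at 0 to 4.97 CPM and *Myh11*, its myosin, at 0 to 2.19 CPM in every library. *Cald1* (caldesmon) was at 184 to 333 CPM and *Pdgfrb*, a receptor gene of mural cells and fibroblasts, at 42.6 to 165 CPM in both, against at most 2.21 and 7.61 CPM in M2-macrophage-like cells. *Dcn*, which encodes the matrix proteoglycan decorin, stood between 10925 and 24195 CPM in both. Cells with at least 4 of 8 contractile genes were 8 in tdT1, 1 in tdT2 and 0 in WT and TNF-Tg, and they held 1 UMI of *Ccl11* and none of the other 4 genes. The classes are therefore called Pi16 stroma (the LMC list, led by *Myoc*, *Col14a1* and *Pi16*) and Cxcl14 stroma (the VSMC list). The latter had 2 clusters, a larger one led by *Fmo2* and a smaller one led by *Col5a3*, *Col4a1* and *Col15a1* that carried 3 of the 10 markers. Without predicted doublets, Pi16 stroma had 646, 94, 1386 and 520 cells in the 4 libraries, and Cxcl14 stroma had 316, 148, 740 and 589.

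*Ccl19* was found in stroma. Of all *Ccl19* UMIs, 99.4% in WT and 99.2% in TNF-Tg cells lay in the 2 stromal classes, and in both tdT libraries every one of them did. M1-macrophage-like, M2-macrophage-like, neutrophil-like and T cell-like cells were at 0 to 2.70 CPM in every library, with at most 4 UMIs in a class. Between the 2 classes, *Ccl19* was higher in Cxcl14 stroma than in Pi16 stroma in all 4 libraries.

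**Figure D1:**
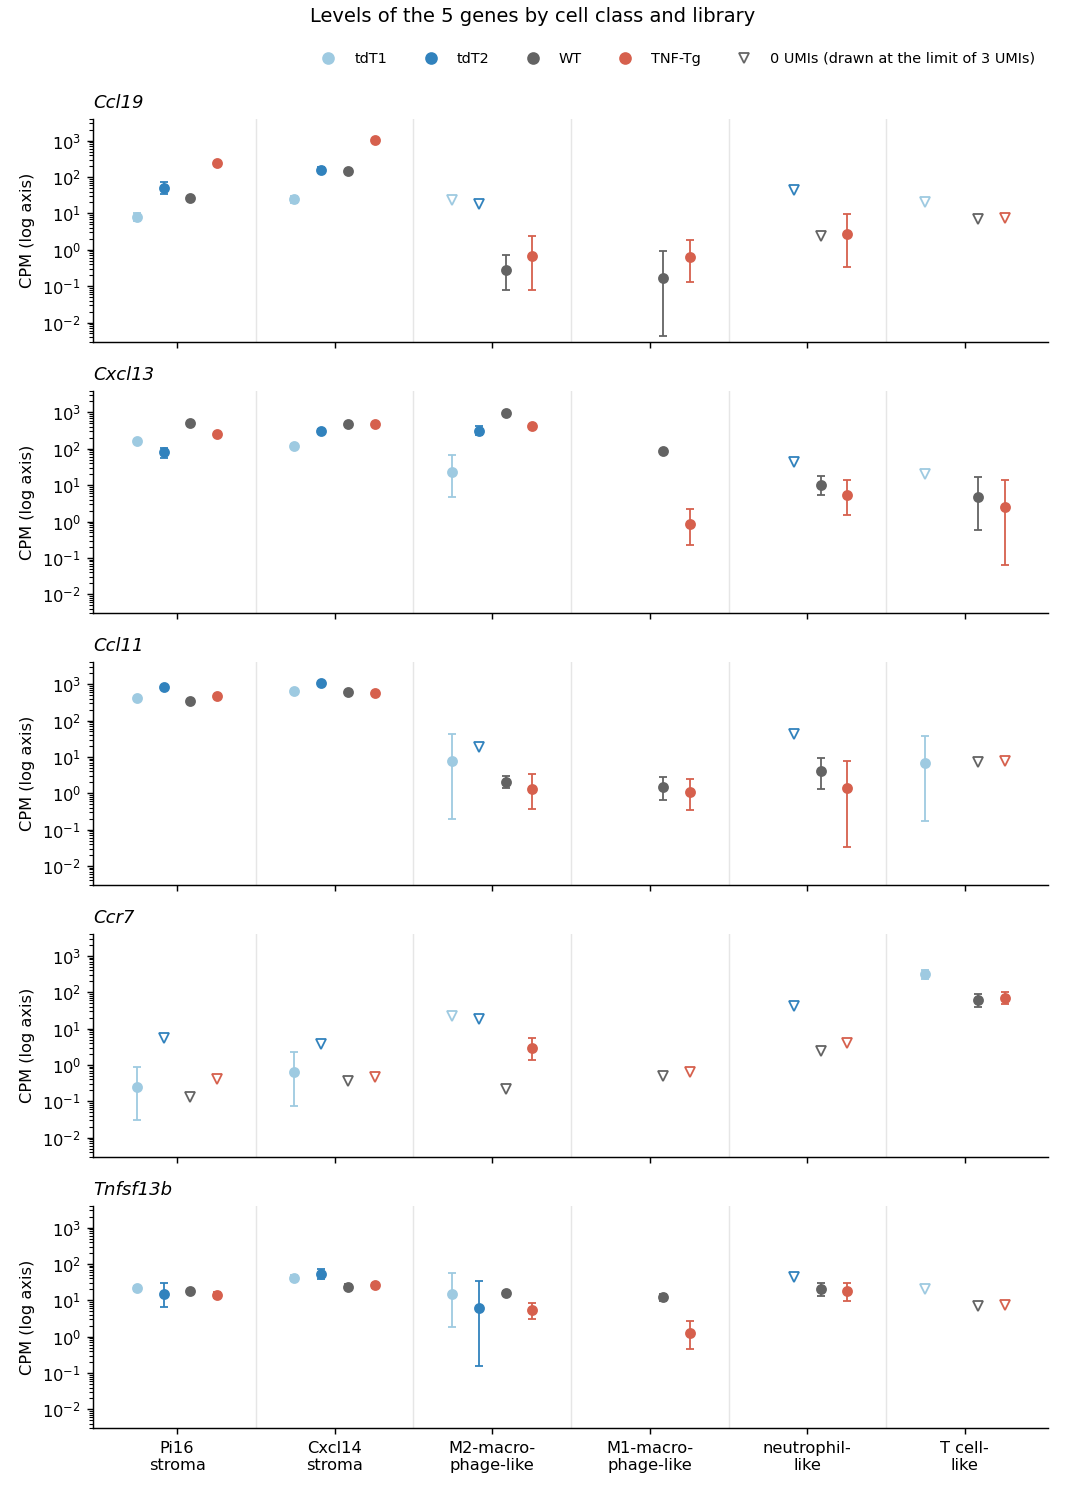
Level of each gene (CPM, log axis) in 6 cell classes with at least 20 cells, by library, with exact Poisson intervals of counting error. *Ccl19* and *Ccl11* are highest in the first 2 classes and under 10 CPM in the others, *Ccr7* is highest in T cell-like cells among these classes, and *Ccl19* in TNF-Tg stroma stands above the other 3 libraries.

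In Pi16 stroma, *Ccl19* stood at 7.97 [6.15 to 10.2], 51.2 [33.7 to 74.5], 26.5 [24.4 to 28.7] and 249 CPM [238 to 261]. The TNF-Tg library was the highest and the tdT1 library the lowest. The level in TNF-Tg cells was 9.40-fold that in WT cells, a log2 ratio of 3.23 [3.1 to 3.37], and 4.87-fold the highest of the other 3 libraries. Among the genes compared between TNF-Tg and WT in this class, 4.29% were at least 2-fold higher in TNF-Tg cells and 0.3% at least 8-fold, and *Ccl19* ranked at place 33 of 12018. The 2 tdT libraries, which are replicates, had a mean of 29.6 ± 30.6 CPM (SD, n = 2), and tdT2 was 6.42-fold above tdT1.

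In Cxcl14 stroma, *Ccl19* was at 24.4, 161, 149 and 1054 CPM. The TNF-Tg library again stood above the 3 others, with WT and tdT2 close to each other. TNF-Tg over WT was 7.07-fold, a log2 ratio of 2.82 [2.73 to 2.91], and TNF-Tg over the highest of the other 3 libraries was 6.53-fold. Of the genes compared in this class, 4.05% were at least 2-fold higher in TNF-Tg cells and 0.273% at least 8-fold, and *Ccl19* was at place 38 of 11340. The tdT mean was 92.9 ± 96.8 CPM (SD, n = 2), with tdT2 6.60-fold above tdT1. The gap between the replicate libraries was thus nearly as wide as the gap between TNF-Tg and WT, for which no such spread can be given.

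The tdT1 library differed from the others in its nozzle, in its sequencer and in the version of the counting software in the matrix header (3.1.0 against 6.0.1). Its matrix listed 31053 genes against 32287 in the others. Of its 1504 cells, 516 had over 10% mitochondrial UMIs, against 1 of 454 in tdT2. Other genes set tdT1 apart as well: *Tnfsf13*, which encodes the BAFF relative APRIL, was at 0.245 CPM in tdT1 Pi16 stroma and at 14.0 to 19.0 CPM in the other 3 libraries. *Ccl19* has near-identical copies in the genome. Of its 954 stretches of 90 bases, 395 (41.4%) were shared with other annotated genes, and the other 4 members had no shared stretch. None of the 4 genes that shared the *Ccl19* stretches was listed in all 4 matrices. A second entry under the symbol *Ccl19*, outside the named chromosomes, was listed in all 4 matrices with 0 UMIs in each. It was not among these 4 genes, and its part in the counts was not tested. The levels given are those of the chr4 entry. The part of the software, the genes listed or the copies in the gap between tdT1 and tdT2 was not tested.

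*Ccl19* differed both in how many cells held it and in how much they held. After each cell was thinned to 3000 UMIs, 5.78% of WT Pi16 stroma cells [4.61 to 7.14] and 24.4% of TNF-Tg cells [20.7 to 28.3] had a UMI, against 1.58% in tdT1 and 11.1% in tdT2. Without thinning the 4 shares were 6.66%, 16%, 19.3% and 48.7%. In Cxcl14 stroma the thinned shares were 27.5% in WT [24.1 to 31.2], 65.0% in TNF-Tg [60.7 to 69.1], 4.37% in tdT1 and 29.3% in tdT2, and the 4 unthinned ones were 16.5%, 41.2%, 49.5% and 79.3%. M2-macrophage-like cells, which should lack the gene, had a thinned share of 0% in WT (0 of 1099 cells [0 to 0.335]) and in TNF-Tg (0 of 247 [0 to 1.48]). Of the thinned TNF-Tg cells in Cxcl14 stroma, 38 of 511 (7.44%) had 10 or more UMIs of *Ccl19*, and no thinned cell of the other 3 libraries did. The highest single cell, in TNF-Tg Cxcl14 stroma, held 142 UMIs before thinning.

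**Figure D2:**
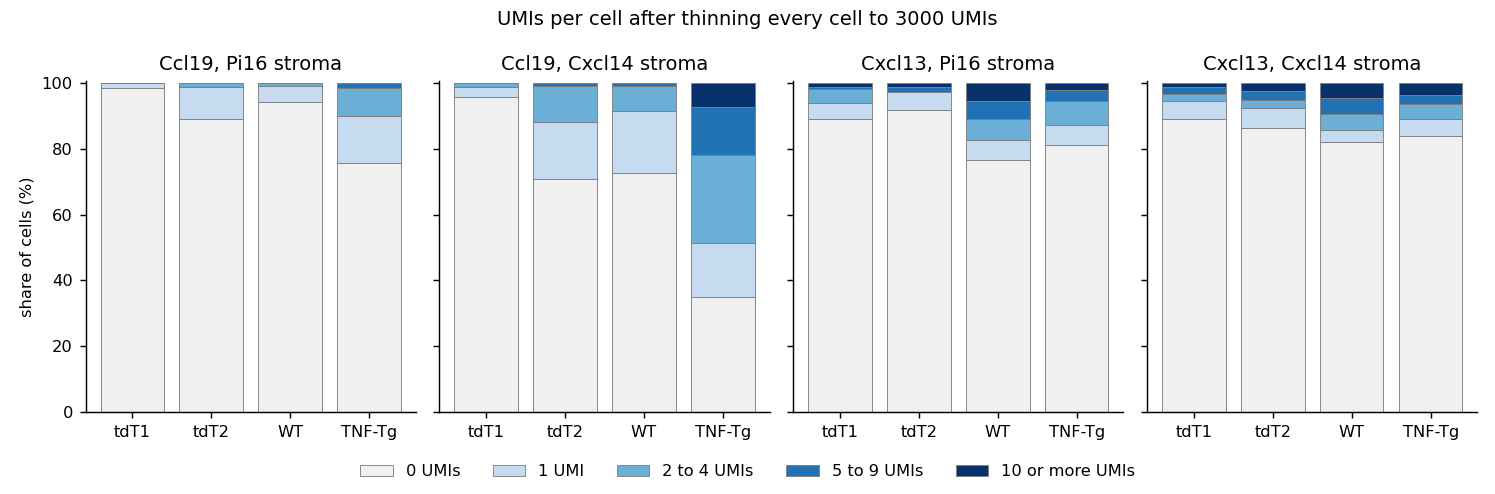
Share of cells (%, stacked bars from 0 to 100) with 0, 1, 2 to 4, 5 to 9 and 10 or more UMIs of *Ccl19* or *Cxcl13* after every cell was thinned to 3000 UMIs, by stromal class and library. For *Ccl19* the share without a UMI is smallest in TNF-Tg cells in both classes, and for *Cxcl13* most cells have none in all libraries while a thin top band holds 10 or more.

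The difference was found in each of the stromal clusters. TNF-Tg over WT was 8-fold in the *Fmo2* cells (134 and 1075 CPM for WT and TNF-Tg) and 5.06-fold in the *Col15a1* cells (193 and 978 CPM). In stroma gated per cell without any clustering (UMIs of *Dcn*, *Col1a2* and *Col3a1* and none of *Ptprc*, which encodes the leukocyte antigen CD45), there were 988, 232, 2090 and 1082 cells. *Ccl19* was there at 12.6, 117, 58.6 and 635 CPM, a log2 ratio of TNF-Tg over WT of 3.44 [3.36 to 3.51], or 10.8-fold. This ratio also takes in the share of Cxcl14 stroma, which was larger among TNF-Tg stromal cells.

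The TNF-Tg stroma was not uniform. When the libraries were clustered together without integration, a cluster that no marker list named took 602 TNF-Tg stromal cells, 248 of them from Pi16 stroma and 354 from Cxcl14 stroma, 1 tdT2 cell and no WT or tdT1 stromal cell. These TNF-Tg cells had *Ccl19* at 848 CPM. The TNF-Tg cells that stayed with the WT cells were far closer to them, at 39.6 against 26.9 CPM in the Pi16 cluster (258 TNF-Tg and 1394 WT cells) and 384 against 143 CPM in the *Fmo2* cluster (187 and 658 cells). *Ccl19* was left out of the clustering features, so it did not draw this cluster directly, but its level there depends on how cells are put together. The tdT1 library also filled unnamed clusters nearly alone in this setting. They held 300 tdT1 stromal cells (0, 3 and 1 in tdT2, WT and TNF-Tg) and 252 (12, 0 and 1). The part of the run in such clusters was not tested.

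*Cxcl13*, the chemokine of B cell follicles, was held by both stroma and macrophages. Stroma held 52.3% of its UMIs in WT and 79.1% in TNF-Tg cells, and M2-macrophage-like cells held 45.5% and 20.5%. In Pi16 stroma it stood at 168, 79.6, 521 and 256 CPM. WT was the highest and TNF-Tg lay inside the range of the other libraries. The log2 ratio of TNF-Tg over WT was −1.02 [−1.09 to −0.95], and 6.01% of genes were at least 2-fold lower in this class. The replicates tdT2 and tdT1 were apart by a log2 ratio of −1.08 [−1.56 to −0.64].

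In Cxcl14 stroma, *Cxcl13* was at 121, 314, 494 and 484 CPM, with a log2 ratio of TNF-Tg over WT of −0.03 [−0.10 to 0.04]. The sum over the class covered clusters with ratios of opposite sign, and these signs depended on the clustering. In the *Fmo2* cells it was at 115, 444, 313 and 190 CPM, a log2 ratio of −0.72 [−0.83 to −0.61]. In the *Col15a1* cells the levels were 127, 111, 1046 and 1509 CPM, a log2 ratio of 0.53 [0.44 to 0.62]. The *Col15a1* cells held the highest stromal levels of *Cxcl13* in WT and TNF-Tg cells but not in the tdT libraries, and this cluster had 137 WT and 108 TNF-Tg cells. When the libraries were merged without integration both signs were turned, with *Cxcl13* at 315 CPM in WT and 354 in TNF-Tg in the cluster led by *Fmo2* and at 1438 and 312 CPM in the unnamed cluster led by *Col5a3*, *Col4a1* and *Col15a1* (71 and 59 stromal cells). At resolution 1 the *Fmo2* cells formed 2 clusters, with log2 ratios of −1.01 [−1.13 to −0.88] and 0.27 [−0.02 to 0.56], the latter with an interval that includes 0.

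Few stromal cells held nearly all of the *Cxcl13*. In Pi16 stroma the top 10% of cells had 98.0%, 92.9%, 82.4% and 84.9% of the UMIs, and the highest cell had 249 UMIs in WT and 246 in TNF-Tg. After thinning to 3000 UMIs, 10.9%, 8.33%, 23.5% [21.3 to 25.9] and 18.8% [15.5 to 22.4] of the cells in Pi16 stroma had a UMI (unthinned 14.2%, 12.8%, 34.5% and 28.1%). Neutrophil-like cells, which should lack the gene, had a thinned share of 1.73% in WT and 0.855% in TNF-Tg and levels of 10.3 and 5.40 CPM, with 112 of 343 and 109 of 226 of them too shallow to be thinned. The stromal shares stood above that background. The markers of M2-macrophages, the other cells with the gene, summed to 3.79 to 55.5 CPM in Pi16 stroma (10 of 10 detected in WT, 9 of 10 in TNF-Tg) against 11022 to 21794 CPM in the M2-macrophage-like cells themselves. Their highest sum in stroma was in WT, where *Cxcl13* was highest too, and the part of macrophage RNA in the stromal level was not tested.

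In M2-macrophage-like cells, which carried *Lyve1* and *Cd209f*, *Cxcl13* was at 22.8, 317, 993 and 425 CPM. The order was WT, TNF-Tg, tdT2 and tdT1, and tdT1 rested on 3 UMIs in 47 cells. The log2 ratio of TNF-Tg over WT was −1.23 [−1.31 to −1.14], or 2.34-fold lower, where 6% of genes were at least 2-fold lower. The thinned share of cells with a UMI was 37.6% in WT [34.7 to 40.5] and 27.1% in TNF-Tg [21.7 to 33.1] (unthinned 49.9% and 39.0%). The stromal LMC markers summed to 50.9 CPM in the WT and 20.1 CPM in the TNF-Tg macrophages. In M1-macrophage-like cells, *Cxcl13* was at 85.5 CPM in WT, with 524 UMIs of which 197 lay in 1 cell, and at 0.844 CPM in TNF-Tg (4 UMIs). The M2 markers were lower along with it in that class, summing to 8531 CPM in WT against 3318 in TNF-Tg, and their part in the difference was not tested.

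The share of stromal cells with *Ccl19* was compared between cells with and without *Cxcl13*. In thinned Pi16 stroma, *Ccl19* was detected in 5.83% of WT cells with *Cxcl13* and in 5.76% of those without it, and in 24.7% and 24.3% of TNF-Tg cells. In Cxcl14 stroma the values were 33.9% and 26.1% in WT, 73.5% and 63.3% in TNF-Tg, 43.8% and 27.0% in tdT2 (16 and 100 cells) and 1 of 25 cells and 9 of 204 cells in tdT1. The intervals overlapped in each of these pairs, and the shares describe cells of 1 library each.

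**Figure D3:**
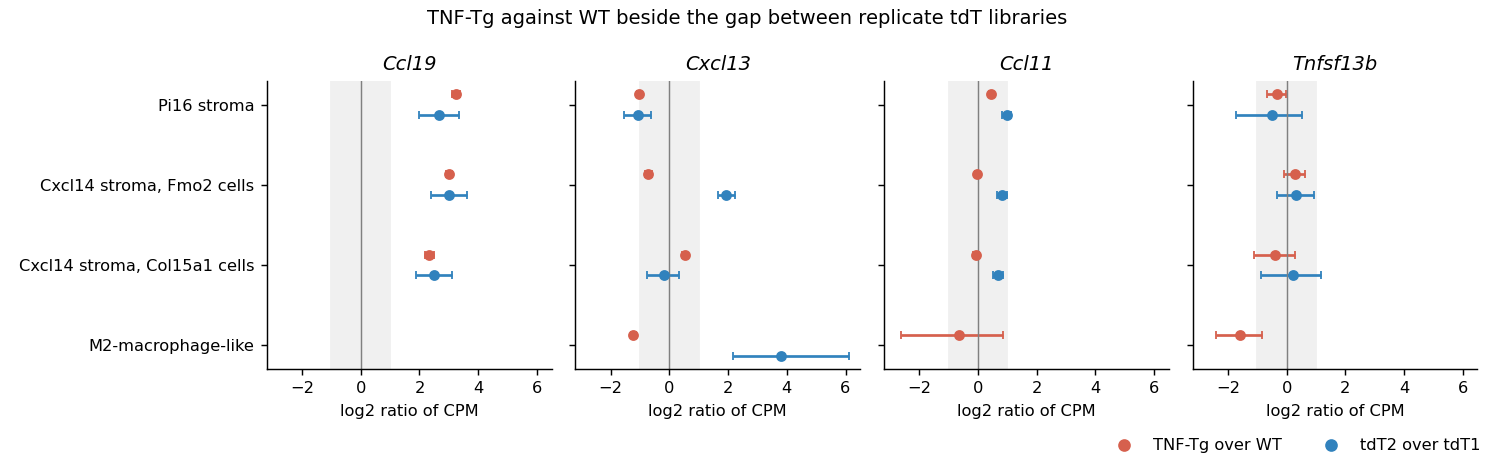
Log2 ratio of CPM with its 95% counting interval for TNF-Tg over WT (red) and for the replicate tdT2 over tdT1 (blue), in Pi16 stroma, the 2 clusters of Cxcl14 stroma and M2-macrophage-like cells, for ratios with at least 20 UMIs over both sums. The grey band marks less than 2-fold, and *Ccl19* lies to the right of it for both ratios in all 3 stromal rows while *Cxcl13* lies on both sides.

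*Ccl11*, the eosinophil chemokine, was the most widespread of the chemokines in stroma and differed less than 2-fold between TNF-Tg and WT. In Pi16 stroma it was at 425, 836, 351 and 473 CPM, a log2 ratio of TNF-Tg over WT of 0.43 [0.37 to 0.49]. In Cxcl14 stroma it was at 635, 1054, 593 and 568 CPM, a log2 ratio of −0.06 [−0.12 to 0.00]. The replicate libraries were wider apart than TNF-Tg and WT, with tdT2 over tdT1 at 1.97-fold and 1.66-fold. From 49.7% to 75.0% of thinned Pi16 stroma cells and from 67.2% to 85.3% of thinned Cxcl14 stroma cells had a UMI, against 0.637% of WT and 0.810% of TNF-Tg M2-macrophage-like cells. *Ccr3*, its receptor, was at 0 or 1 UMI in each stromal class of WT and TNF-Tg.

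*Tnfsf13b*, the gene of BAFF, was low in every class, and most of its UMIs lay in stroma. The 2 stromal classes held 92.8%, 91.1%, 59.9% and 81.3% of them. It stood at 21.5, 15.2, 17.6 and 14.0 CPM in Pi16 stroma, a log2 ratio of TNF-Tg over WT of −0.33 [−0.66 to −0.01]. In Cxcl14 stroma it was at 41.7, 53.3, 23.9 and 26.1 CPM, a log2 ratio of 0.13 [−0.18 to 0.43]. The tdT libraries were the highest in Cxcl14 stroma. Among leukocytes, neutrophil-like cells had 19.9 CPM in WT against 17.6 in TNF-Tg (25 and 13 UMIs). In M2-macrophage-like cells it was at 15.7 CPM in WT against 5.27 in TNF-Tg, a log2 ratio of −1.58 [−2.41 to −0.85] from 221 and 16 UMIs. M1-macrophage-like cells had 12.2 and 1.27 CPM, a log2 ratio of −3.27 [−4.76 to −2.08] from 75 and 6 UMIs, in a class where 16% of genes were at least 2-fold lower. T cell-like cells had none in any library. The receptor gene *Tnfrsf13c* was at 305 CPM in B cell-like cells of tdT1 (10 of 23 cells), at 5 UMIs each in the 2 WT and the 6 TNF-Tg B cell-like cells, and at 0 in tdT2.

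Counted over the members, TNF-Tg over WT in Pi16 stroma had 1 of 4 compared genes at least 2-fold higher (*Ccl19*) and 1 lower (*Cxcl13*), where 10.3% of all genes were at least 2-fold apart in either direction. In Cxcl14 stroma 1 of 4 was higher (*Ccl19*) and none lower, beside 14.7% of all genes apart. The rise of *Ccl19* was known from the study, so that the counts in both stromal classes include a gene already reported. In M2-macrophage-like cells 2 of 3 were lower (*Cxcl13* and *Tnfsf13b*) and none higher, beside 11.1%. The same 2-fold separated 18.6% of genes between the replicate tdT libraries in Pi16 stroma and 14.9% in Cxcl14 stroma.

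*Ccr7*, the receptor of CCL19, was not detected in stroma of WT and TNF-Tg. Their 0 UMIs allow up to the level of 3 UMIs, which is 0.13 and 0.415 CPM in Pi16 stroma and 0.365 and 0.466 CPM in Cxcl14 stroma, while tdT1 stroma had 4 UMIs and tdT2 stroma none. The M1-macrophage-like and neutrophil-like cells of WT and TNF-Tg had none either. Since *Ccr7* cells were too few to form clusters of their own, leukocytes were also gated per cell by the number of markers detected, with at least 5 of 10 for mature dendritic cells, 5 of 9 for T cells and 4 of 8 for B cells, none of them *Ccr7*. A cell that passed more than 1 gate was left out, which concerned 1 TNF-Tg cell with at least 7 of the dendritic cell markers and no *Ccr7*.

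The libraries held 137, 16, 86 and 263 *Ccr7* UMIs in 41, 7, 16 and 38 cells. Mature dendritic cell-like cells were 15 of 3317 TNF-Tg cells (0.452% [0.253 to 0.745]), 2 of 5351 WT cells (0.0374% [0.00453 to 0.135]) and 0 of 1500 and 454 tdT cells, which allows shares of up to 0.200% and 0.661%. All of these cells had 7 or more of the 10 markers, while 11 WT, 9 TNF-Tg and 8 tdT1 cells had 4. *Ccr7* was found in 14 of the 15 TNF-Tg cells, with 227 UMIs or 86.3% of that library's total [81.6 to 90.2], and in both WT cells, with 56 UMIs or 65.1% [54.1 to 75.1]. The scatter sort can set the share of these cells, and fewer cells are a different quantity from the level per cell, which was 3192 CPM [2411 to 4146] in the 2 WT cells and 1105 CPM [966 to 1259] in the TNF-Tg cells. Of the 56 WT UMIs, 43 lay in 1 cell.

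**Figure D4:**
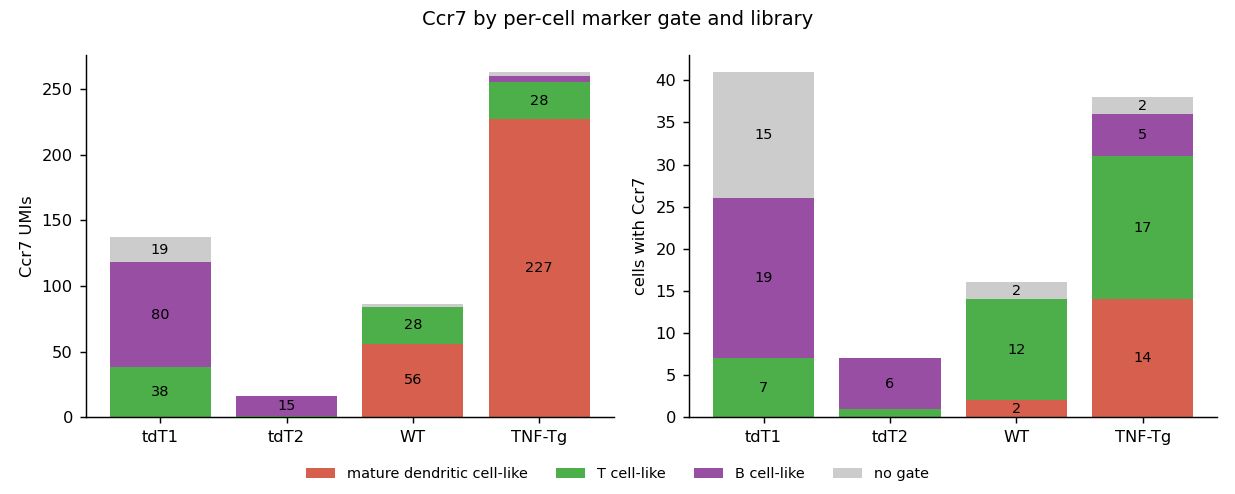
UMIs of *Ccr7* (left) and cells with *Ccr7* (right) in each library, stacked by the per-cell marker gate of the cell, both axes starting at 0. Mature dendritic cell-like cells hold 227 of 263 UMIs in TNF-Tg and 56 of 86 in WT, and B cell-like cells hold most in tdT1 and tdT2.

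The gate used genes of migratory dendritic cells, so their levels describe the gated cells and are no finding. *Fscn1*, which encodes the actin bundler fascin, was at 3648 CPM in the WT cells and at 2010 CPM in the TNF-Tg cells, *Il4i1* was detected in all of them, and the chemokine genes *Ccl22* and *Ccl17* in 6 and 2 of the 15 TNF-Tg cells. Of the genes the gate did not use, *Relb*, a subunit gene of the alternative NF-kappa B pathway, was detected in both WT cells (1482 CPM) and in all 15 TNF-Tg cells (618 CPM), against 16.5 and 13.7 CPM in T cell-like cells. No *Ccl19* UMI was found in these cells, which allows up to 14.6 CPM in TNF-Tg. Of the TNF-Tg cells, 12 lay in 1 unnamed cluster that also held both WT cells, and the others were spread over M2-macrophage-like, *Ear2* and *Cd209a* dendritic cell-like clusters. That unnamed cluster was mixed, with 23 of its 39 cells from tdT1. Its leading genes included *Krt14*, *Krt5*, *Acta2*, *Fscn1* and *Ccr7* itself.

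The marker gate held 15, 17, 66 and 70 T cell-like cells. *Ccr7* was found in 7, 1, 12 and 17 of them, or 18.2% [9.76 to 29.6] in WT and 24.3% [14.8 to 36.0] in TNF-Tg, whose intervals overlap. These cells gave 28 UMIs in each of WT and TNF-Tg, 32.6% and 10.6% of the library totals. Split by *Ccr7* itself, as a description, the T cells with the gene had higher levels of most genes of naive and recirculating T cells. The transcription factor gene *Lef1* was at 196 against 25.9 CPM in WT and 214 against 42.2 CPM in TNF-Tg, and *S1pr1*, the receptor for exit from tissue, at 305 against 83.2 and 268 against 89.7 CPM. *Klf2*, which keeps T cells recirculating, was at 893 against 398 and 980 against 617 CPM, and *Tcf7* at 384 against 99.9 and 291 against 108 CPM. *Il7r* was closer, at 470 against 503 CPM in WT and 651 against 520 CPM in TNF-Tg. *Cd8b1* was at 360 against 96.2 CPM in WT and 567 against 103 CPM in TNF-Tg, and *Cd4* at 31.3 against 33.3 CPM in WT and 0 against 10.6 CPM in TNF-Tg. In tdT1, with 7 cells against 8, *Cd8b1* was at 150 against 0 CPM and *Cd4* at 107 against 30.6 CPM. The cells with *Ccr7* were somewhat deeper, with a median of 10183 against 8657 UMIs in WT and 7439 against 6251 in TNF-Tg.

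The B cell gate held 23, 8, 2 and 6 cells. They held 80 of the 137 *Ccr7* UMIs of tdT1 and 15 of the 16 of tdT2, but 0 in WT and 5 in TNF-Tg. *Cxcr5*, the receptor of CXCL13, was at 3 UMIs in tdT1 and 2 in TNF-Tg B cell-like cells and at 0 in tdT2 and WT, and at 0 UMIs in stroma of WT and TNF-Tg. The tdT libraries were gated on the reporter and WT and TNF-Tg on high scatter, so that the sort and the number of leukocytes cannot be told apart between these pairs.

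The other genes of lymphoid stroma were read from a list of 18 that was chosen with earlier results of these data known. The study had already reported *Cxcl12*, a listed gene, as raised in TNF-Tg cells, as it had the member *Ccl19*. The counts below describe the listed genes and are no test of enrichment. In Pi16 stroma 11 had enough UMIs, and 5 were at least 2-fold higher in TNF-Tg than in WT cells and none lower (4.29% and 6.01% over all genes), with a median log2 ratio of 0.80 against −0.03 over all genes. Merged without integration, none was higher and 3 were lower. *Cxcl12*, a chemokine of stromal niches, was at 241, 311, 133 and 683 CPM, a log2 ratio of 2.36. *Pdpn*, which encodes podoplanin, the surface protein by which fibroblastic reticular cells are sorted, was at 167, 159, 165 and 398 CPM, a log2 ratio of 1.27. These 2 genes were also at least 2-fold above each of the 3 other libraries, as 1.12% of all genes were and *Ccl19* was too. *Vcam1* (log2 ratio 1.25) and *Cxcl14* (1.72) were above all 3 by less, and *Icam1*, at 42.6, 32.2, 12.9 and 34.3 CPM, lay inside their range although its log2 ratio over WT was 1.41. *Cxcl14* is a naming marker of the other stromal class, and the part of class assignment in its ratio here was not tested. *Cxcl10*, an interferon-induced chemokine gene, was at 78.5 CPM in tdT1 and at 1.90 to 4.99 CPM in the others.

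In Cxcl14 stroma 10 of the 18 were compared, with 1 at least 2-fold higher and 1 lower (4.05% and 10.6% over all genes). Their median was 0.49 against −0.18 over all genes. The higher gene was *Cxcl14*, at 735, 964, 1118 and 2714 CPM, which is also a naming marker of this class and was 2.43-fold above the highest other library, where 1.31% of all genes were at least 2-fold above all 3. *Pdpn*, at 112, 120, 120 and 237 CPM, and *Vcam1*, at 38.8, 29.8, 22.6 and 44.9 CPM, had a log2 ratio of 0.99 each and stood above all 3 other libraries. *Cxcl12* was at 1269 CPM in TNF-Tg against 743 to 799 in the others. The lower gene was *Il7*, a survival factor for T cells made by reticular cells, with 28 UMIs in WT and 9 in TNF-Tg. Its WT UMIs alone carried it past the UMI minimum. Genes that define specialised lymphoid stroma were at or near 0 in both classes of both libraries: *Ccl21b*, *Madcam1*, *Tnfsf11*, *Bst1* and *Grem1* had fewer than 20 UMIs over WT and TNF-Tg, and *Ccl21a*, the other ligand gene of CCR7, had 1 UMI in WT Pi16 stroma and 1 in TNF-Tg Cxcl14 stroma.

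**Figure D5:**
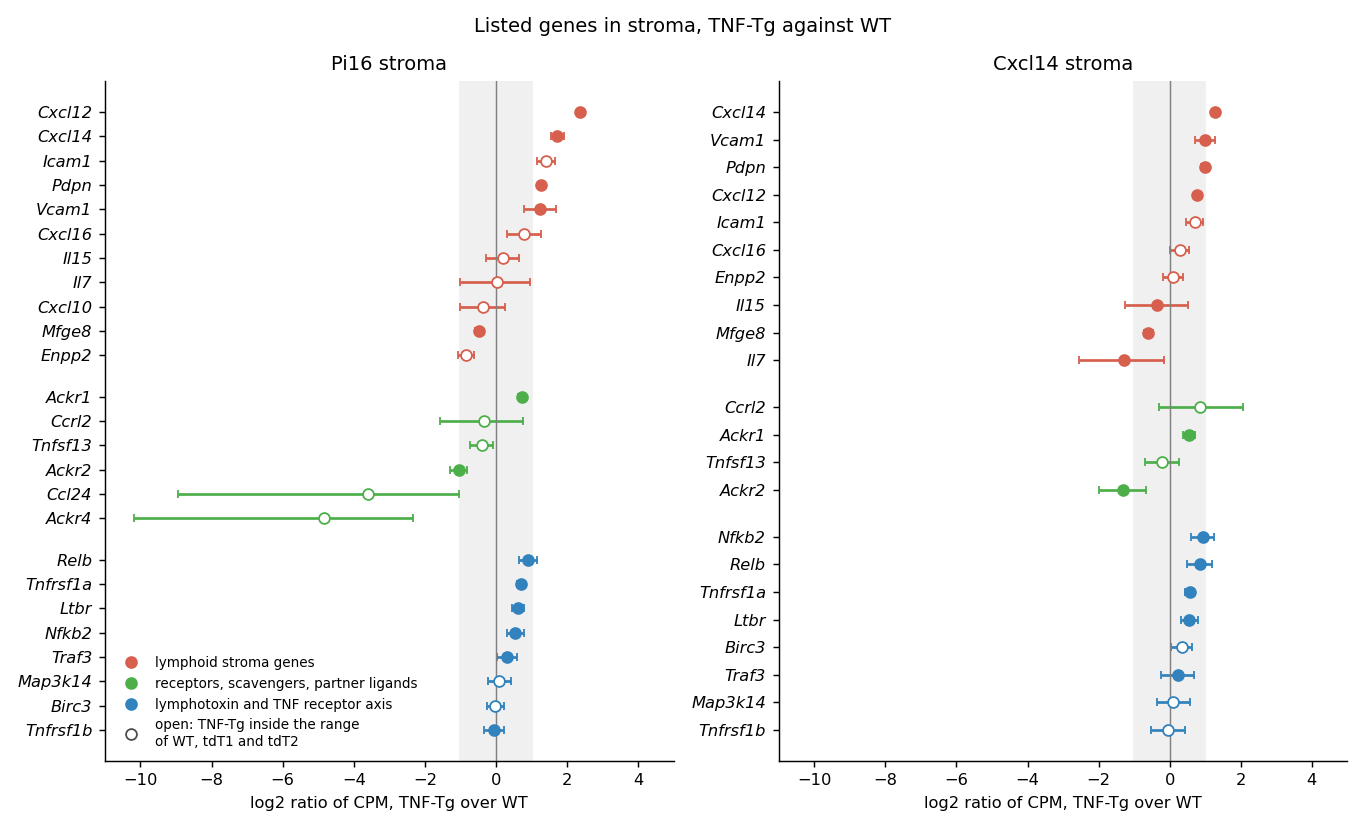
Log2 ratio of CPM, TNF-Tg over WT, with 95% counting intervals for the genes of 3 gene lists with at least 20 UMIs over both sums, in Pi16 stroma (left) and Cxcl14 stroma (right). Filled points lie outside the range of WT, tdT1 and tdT2, and the grey band marks less than 2-fold: *Cxcl12*, *Cxcl14*, *Pdpn* and *Vcam1* are filled and above 2-fold in Pi16 stroma, while the 8 genes of the lymphotoxin and TNF receptor axis stay within the band in both classes.

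Among 14 receptors, scavengers and partner ligands of the members, 6 were compared in Pi16 stroma, with none at least 2-fold higher and 3 lower, where 6.01% of all genes were lower. *Ackr4*, which encodes a scavenger of CCL19 and CCL21, had 92 UMIs in WT (3.99 CPM) and 1 in TNF-Tg cells (0.138 CPM), with 2.09 CPM in tdT1. It had 0 UMIs in the 94 cells of tdT2, where the limit of 3 UMIs lies above the WT level. The eotaxin gene *Ccl24* had 39 and 1 UMIs. *Ackr4* and *Ccl24* passed the UMI minimum through their WT UMIs alone, in a class where the WT sum was the larger. *Ackr2*, a scavenger of inflammatory CC chemokines, was at 35.0, 45.5, 47.8 and 23.2 CPM, a log2 ratio of −1.04 and below all 3 other libraries. In Cxcl14 stroma 4 were compared and 1 was lower (10.6% over all genes), again *Ackr2*, with 85 and 27 UMIs and a log2 ratio of −1.30. *Ackr1*, the chemokine-binding Duffy receptor, was highest in TNF-Tg in both classes, with log2 ratios over WT of 0.72 and 0.54. The medians of the list were −0.72 in Pi16 stroma and 0.16 in Cxcl14 stroma.

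Of the 12 genes of the lymphotoxin and TNF receptor axis, 8 were compared in each class and none was 2-fold apart in either. Over all genes, 10.3% were at least 2-fold apart in Pi16 stroma and 14.7% in Cxcl14 stroma. The medians of the 8 were 0.43 and 0.44, above those of all genes (−0.03 and −0.18). In both classes 5 of the 8 were above all 3 other libraries, a count without a share over all genes to set beside it. Some margins were thin, with *Traf3* 1.005-fold and *Ltbr* 1.04-fold the highest other library in Cxcl14 stroma. *Relb* had log2 ratios of 0.90 and 0.84, *Nfkb2* of 0.54 and 0.92, *Tnfrsf1a*, the receptor that human TNF also binds, of 0.71 and 0.56, and *Ltbr*, the lymphotoxin beta receptor gene, of 0.62 and 0.55. Its ligand gene *Ltb* was held, among others, by neutrophil-like cells, at 309, 671, 263 and 936 CPM, by gated T cell-like cells, at 474, 846, 551 and 744 CPM, and by gated B cell-like cells, at 418, 1221, 1717 and 489 CPM. Of its 1077 UMIs in WT and 2017 in TNF-Tg, 331 and 693 lay in neutrophil-like cells. *Ltb* was detected in 616 TNF-Tg cells, 168 of them neutrophil-like, while the T and B cell gates held 70 and 6 TNF-Tg cells. Classes not named here thus held *Ltb* as well.

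The lists of leukocyte genes were counted in the stromal sums as well. Of the 8 B cell markers, 2 were compared in Pi16 stroma and both were lower in TNF-Tg than in WT, *Igkc* with 1 against 23 UMIs and *Ighm* with 7 against 63, where 6.01% of all genes were lower. Both passed the UMI minimum through their WT UMIs alone. Over all cells of the library *Igkc* was at 279 CPM in WT and 9.70 in TNF-Tg, and the 23 WT stromal UMIs lay in 23 cells. In Cxcl14 stroma 1 marker was compared and was not 2-fold apart. Of the 6 naive T cell genes only *Klf2*, which vascular and stromal cells express too, had enough UMIs. In Pi16 stroma it stood at 1766, 688, 519 and 257 CPM, a log2 ratio of −1.01, and in Cxcl14 stroma it was lower in TNF-Tg as well, at 115 CPM against 230 in WT. Of the 10 mature dendritic cell genes, 3 were compared in Pi16 stroma with none 2-fold apart (10.3% over all genes). In Cxcl14 stroma 5 were compared, with 2 at least 2-fold higher in TNF-Tg and none lower (4.05% and 10.6% over all genes). The 2 were *Samsn1*, with 30 against 5 UMIs, and *Fscn1*, at 6.58, 12.4, 3.04 and 14.3 CPM. *Samsn1* passed the UMI minimum through its TNF-Tg UMIs alone, which lay in 10 of 589 cells. *Fscn1* is also expressed by mesenchymal cells, and its TNF-Tg level was close to that of tdT2.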

How the data were processed

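The authors aligned reads to mm10 with Cell Ranger and deposited filtered counts of UMIs per gene and cell, which were not normalized. The matrix header gives version 3.1.0 for tdT1 and 6.0.1 for the other libraries. The submitters' processing notes name Cell Ranger 3.1.0 and Seurat 4.0.3. Levels depend on the cells called by the authors and on how reads shared by gene copies were treated.

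Predicted doublets were found with Scrublet in scanpy 1.11.5 (Python 3.11.15) and left out (4, 0, 137 and 74 cells in tdT1, tdT2, WT and TNF-Tg). No other cells were left out. Cells were integrated and clustered with Seurat 5.3.0 (R 4.3.3) on 1977 of 2000 variable features, with 30 dimensions and a resolution of 0.5. Left out of the features were the 52 gene entries of the members, their receptors and partners, the lymphoid stroma list and the lymphotoxin and TNF receptor axis. The lists of mature dendritic cell, naive T cell and B cell genes were not left out. A cluster was named where at least 3 of a type's markers were among its top 50 genes, unless it failed a check. It stayed unnamed if at least 50% of its cells were predicted doublets or its median mitochondrial share passed 10%. A keratin gene among its top 10 genes, or low depth without a marker of the type among them, also left it unnamed. Of 22 clusters 19 were named, in 18 classes, and the naming limits were set after the clusters had been seen.

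UMIs were summed per class and library for classes of at least 20 cells. Cells were thinned to 3000 UMIs (seed 42) for shares of cells. A ratio was formed where the WT and TNF-Tg sums held at least 20 UMIs together, and a gene was counted at 2-fold. A gene could thus pass through its UMIs in either library alone, and the WT sum of Pi16 stroma was the larger. With 1 library per condition no test was run, and the intervals (95%) cover counting error only. The SD of the 2 tdT libraries covers the spread between these libraries alone. The ratio and interval code was tested on simulated sums. The members and gene lists were chosen with earlier results of these data known. The genes named were the 5 members, the listed genes at least 2-fold apart in stroma, and the 5 genes most like each member; other listed genes and T cell genes were named after their values were seen. Promoters came from RefSeq (GRCm38.p6). Alternatives were kept doublets, a filter on cell quality, resolution 1, merging without integration, TMM scaling (edgeR 4.0.16), equal weight per cell, no UMI minimum and thinning to 1500 UMIs. Chosen after seeing the data were the per-cell gates and the comparison with each other library.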

Additional observations from a re-analysis of the deposited data

Results flagged for a closer look

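*Cxcl13* differed in opposite directions in the 2 clusters of Cxcl14 stroma. TNF-Tg over WT was −0.72 on the log2 scale in the *Fmo2* cells and 0.53 in the *Col15a1* cells, with counting intervals that lie on either side of 0. Both signs were turned when the libraries were merged without integration, with 315 CPM in WT and 354 in TNF-Tg in the cluster led by *Fmo2* and 1438 and 312 CPM in the cluster led by *Col5a3*, *Col4a1* and *Col15a1*. The difference between the clusters was not tested, since each condition had 1 library. The replicate tdT libraries differed in these clusters as well, with *Cxcl13* at 115 and 444 CPM in the *Fmo2* cells and at 127 and 111 CPM in the *Col15a1* cells.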

How the results depend on the processing

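No paired analysis was possible because WT and TNF-Tg had 1 library each and only the tdT libraries carried replicate numbers. Of the members' ratios in Pi16 stroma, Cxcl14 stroma and M2-macrophage-like cells, those at least 2-fold kept their direction under all alternatives run. Ratios in other classes, such as those of *Cxcl13* and *Tnfsf13b* in M1-macrophage-like cells, were not recomputed. Ratios of list genes were recomputed as counts only, and the signs of *Cxcl13* in the 2 clusters of Cxcl14 stroma were turned by merging. The step that mattered most was integration. With the libraries merged without it, the log2 ratio of TNF-Tg over WT for *Ccl19* came to 0.56 in Pi16 stroma, 1.43 in Cxcl14 stroma and 1.31 in both together (3.23, 2.82 and 3.42 in the text's setting), because 602 *Ccl19*-rich TNF-Tg cells left the named classes. *Cxcl13* came to 0.17 in Cxcl14 stroma, −1.46 in M2-macrophage-like cells and −0.74 in both stromal classes, *Ccl11* to 0.36 in either class and 0.39 in both, and *Tnfsf13b* to 0.29 in Pi16 stroma. Lymphoid stroma genes at least 2-fold higher were then 0 in both classes and 3 were lower in Pi16 stroma, receptors lower in Cxcl14 stroma were 0, and the share of *Ccr7* UMIs in T cell-like clusters was 94.9% in tdT1 and 100% in tdT2 (33.6% and 6.25% with integration). The merged cluster with the T cell name was led by *Igkc*, *Iglc2*, *Ighg2b* and *Jchain* and also took in B cell-like cells. By the per-cell gate, B cell-like cells held 80 of the 137 *Ccr7* UMIs of tdT1 and 15 of the 16 of tdT2.

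TMM scaling, which shifted all ratios by 0.155 in Cxcl14 stroma and by −0.105 in M2-macrophage-like cells, gave *Ccl19* 2.98, *Cxcl13* 0.13 and *Ccl11* 0.093 in Cxcl14 stroma and *Cxcl13* −1.33 in the macrophages, with 3 lymphoid stroma genes, 1 receptor gene and 1 axis gene at least 2-fold higher in Cxcl14 stroma. Equal weight per cell gave *Ccl19* 2.91 and 2.69 and *Cxcl13* −0.94 and −0.15 in Pi16 and Cxcl14 stroma, *Ccl11* 0.021 in Cxcl14 stroma and *Cxcl13* −1.01 in the macrophages. Against the highest of the other 3 libraries, *Ccl19* was at 2.28 and 2.71, *Ccl11* at −0.82 and −0.89, and *Tnfsf13b* at −1.03 in Cxcl14 stroma. Set against each of the 3, 2 lymphoid stroma genes were higher in Pi16 stroma, 0 were lower in Cxcl14 stroma, and 0 receptor genes were lower in either. Without the UMI minimum, 3 lymphoid stroma genes and 3 receptor genes were lower in Cxcl14 stroma and 1 axis gene was higher in each class. With doublets kept, or at resolution 1, 2 lymphoid stroma genes were higher in Cxcl14 stroma. The per-cell stromal gate gave 3.44 for *Ccl19*, −0.46 for *Cxcl13*, 0.31 for *Ccl11* and 0.04 for *Tnfsf13b*.

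Leaving out either tdT library left the level of the other, as given in the report. Of 88 ratios recomputed, 63 moved by less than their counting interval, as did 67 of 84 list counts within 1.5 times, 65 of 76 levels and 6 of 28 shares of cells, which were lower with the shallower thinning. For levels under the limit of 3 UMIs no difference was detectable.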

Other observations

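The genes whose levels were most like those of each member were found over the 26 class and library sums with at least 50 cells, by Pearson's r of log2(CPM + 1) among 12649 genes. These points share libraries and depth, several come from like cell types, and r is a description only. For *Ccl19* the closest were *Tm4sf1* (r of 0.967), *Cyp4b1* (0.966), *Dnmt3l* (0.962), *Khdrbs3* (0.958) and *Mmp3* (0.956). For *Cxcl13* they were *Colec12*, *Slc18b1*, *Spats2*, *Gprc5b* and *C4b* (0.922 to 0.942), and for *Ccl11* they were *Mfap2*, *Fbln2*, *Gulp1*, *Pcsk5* and *Efs* (0.987 to 0.989). The only T cell-like sum with enough cells was that of TNF-Tg (64 cells) and mature dendritic cell-like cells formed none, so that the likeness to *Ccr7* rests on few points. *Ccr7* was most like *Lck*, *Xcl1*, *Gimap4*, *Klrb1c* and *Ctsw* (0.902 to 0.944), and *Tnfsf13b* like *Agrn* (0.944), *Peli2*, *Hspa1a*, *Slc35f5* and *Slc44a1* (0.863 to 0.883).

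*Ccl21a*, the other ligand gene of CCR7, which lymphatic endothelium makes, was found in few cells. With predicted doublets kept, it had 205 UMIs in 2 tdT1 cells, 52 in 1 tdT2 cell, 633 in 4 WT cells and 2 in 2 TNF-Tg cells. Among the endothelial-like cells were the tdT2 cell with 52 UMIs and 1 WT cell with 479. An unnamed cluster of 126 cells, of which 96.8% were predicted doublets, had *Ccl19* among its leading genes and was left out of the classes.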
